A study of Mus musculus with 9 samples.

Results

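Gene expression was compared between the left ventricle of 3 mice at 1 day after ischemia-reperfusion (I/R) and that of 3 sham-operated mice, which are 6 of the 9 samples of the series. The members were the 6 count columns that name these groups, and all genes in them were considered. All 6 were male C57BL/6 mice aged 8 weeks. In I/R the left anterior descending coronary artery was tied off for 1 hour and then released, so that blood flowed again. Sham mice had a sham surgery, of which no further detail is given, and the time at which their tissue was taken is not given. The labels name the infarcted region of the left ventricle as the tissue of every sample, sham included. Sham mice are numbered 1, 2 and 3 and I/R mice 4, 5 and 6. The labels give 1 library to each mouse and no batch, pairing or pooling.

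When a coronary artery is closed and reopened, heart muscle cells die within the area it feeds, blood cells enter, and the surviving muscle changes its gene expression. The adult heart muscle cell lives mainly on fatty acids, makes little new nucleic acid, and holds a stable set of contractile, membrane and signalling genes. Injured tissue instead secretes clotting regulators and matrix, rebuilds actin and tubulin filaments, and needs nucleotides, amino acids and secretory capacity. The gene families below were chosen to show these branches.

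Total counts ran from 20215781 to 32501962 per library, and from 5706225 to 14501223 without mitochondrially encoded and ribosomal RNA genes, and this depth limits the precision of low genes. Mitochondrially encoded genes took 67.7% ± 3.599 of counts in sham and 59.1% ± 6.19 at 1 day (SD, n = 3 per group, two-sided exact permutation p = 0.1, the smallest that 3 against 3 can give). Without mouse 4 the difference of -8.58 percentage points was -5.02. Ribosomal RNA genes, those of mitochondria included, took 60.2% ± 3.54 in sham and 53.4% ± 5.57 at 1 day (SD, n = 3 per group, two-sided exact permutation p = 0.1), and annotated nuclear ones alone at most 0.000637% in any library. The part of these shares in the results was not tested beyond the scalings given below. Cardiomyocyte markers were high in every library, and 6 of 8 fell (summed level 61068 to 67892 CPM in sham and 33652 to 50389 CPM at 1 day). Of 7 smooth muscle and pericyte markers, 1 rose and 4 fell (summed level 822 to 854 CPM in sham and 372 to 543 CPM at 1 day). Of 5 atrial myocyte markers, 3 were tested, 2 rose and 0 fell (summed level 21.9 to 47.5 CPM in sham and 381 to 488 CPM at 1 day), and at an unadjusted p under 0.05 in edgeR 0 fell, and DESeq2 and limma-voom called 0 and 0 lower. They include Nppa, which ventricular muscle also makes under stress, and Sln, which had 0 counts in all 6 libraries. All 5 tested of 7 neutrophil markers and 5 of 7 macrophage and monocyte markers rose. On the first principal component of log2 CPM, which held 82.8% of the variance, sham lay between -55.4 and -49.4, mice 4 and 5 at 65.9 and 67.1, and mouse 6 stood apart at 24.9. In bulk tissue, fewer cells of a type and less RNA per cell cannot be told apart, and this holds for every result here.

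Of 14124 genes tested, 4148 rose at 1 day (29.4%) and 3496 fell (24.8%) at an adjusted p under 0.05 in the quasi-likelihood test of edgeR, 54.1% in all. The groups did not overlap for 8925 genes (63.2%). CPM is a gene's count per 1000000 counts of the library scaled by the trimmed mean (TMM). The median log2 fold of all genes was 0.04, and each family below is read beside these shares and this median. With total count only and no scaling factors, the median moved by 0.48, 6859 genes rose (48.6%) and 1058 fell (7.49%). A family's counts with total count are to be read beside these shares of all genes in that setting. The share of called genes that rose was 54.3% with TMM and 86.6% with total count. With total count after leaving out mitochondrially encoded and ribosomal RNA genes, a setting chosen after the data were seen, 5048 rose (35.8%) and 2690 fell (19.1%). Without mice 1, 2, 3, 4, 5 and 6 in turn, 25.2%, 23.8%, 24.6%, 22.3%, 24.3% and 31.7% of genes rose and 21%, 20.2%, 20.9%, 20.9%, 19.8% and 26.4% fell, and a family's count is given without a mouse where that moved it by over 1.5 times. Numbers in brackets after a gene are its log2 fold of 1 day over sham and the standard error from the fit, and a fall that was no longer called with total count is marked "lost with total count". Every gene given with a log2 fold below passed the test, and its groups did not overlap. For each family with 0 falls with total count, 0 also fell there at an unadjusted p under 0.05 in edgeR.

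**Figure D1:**
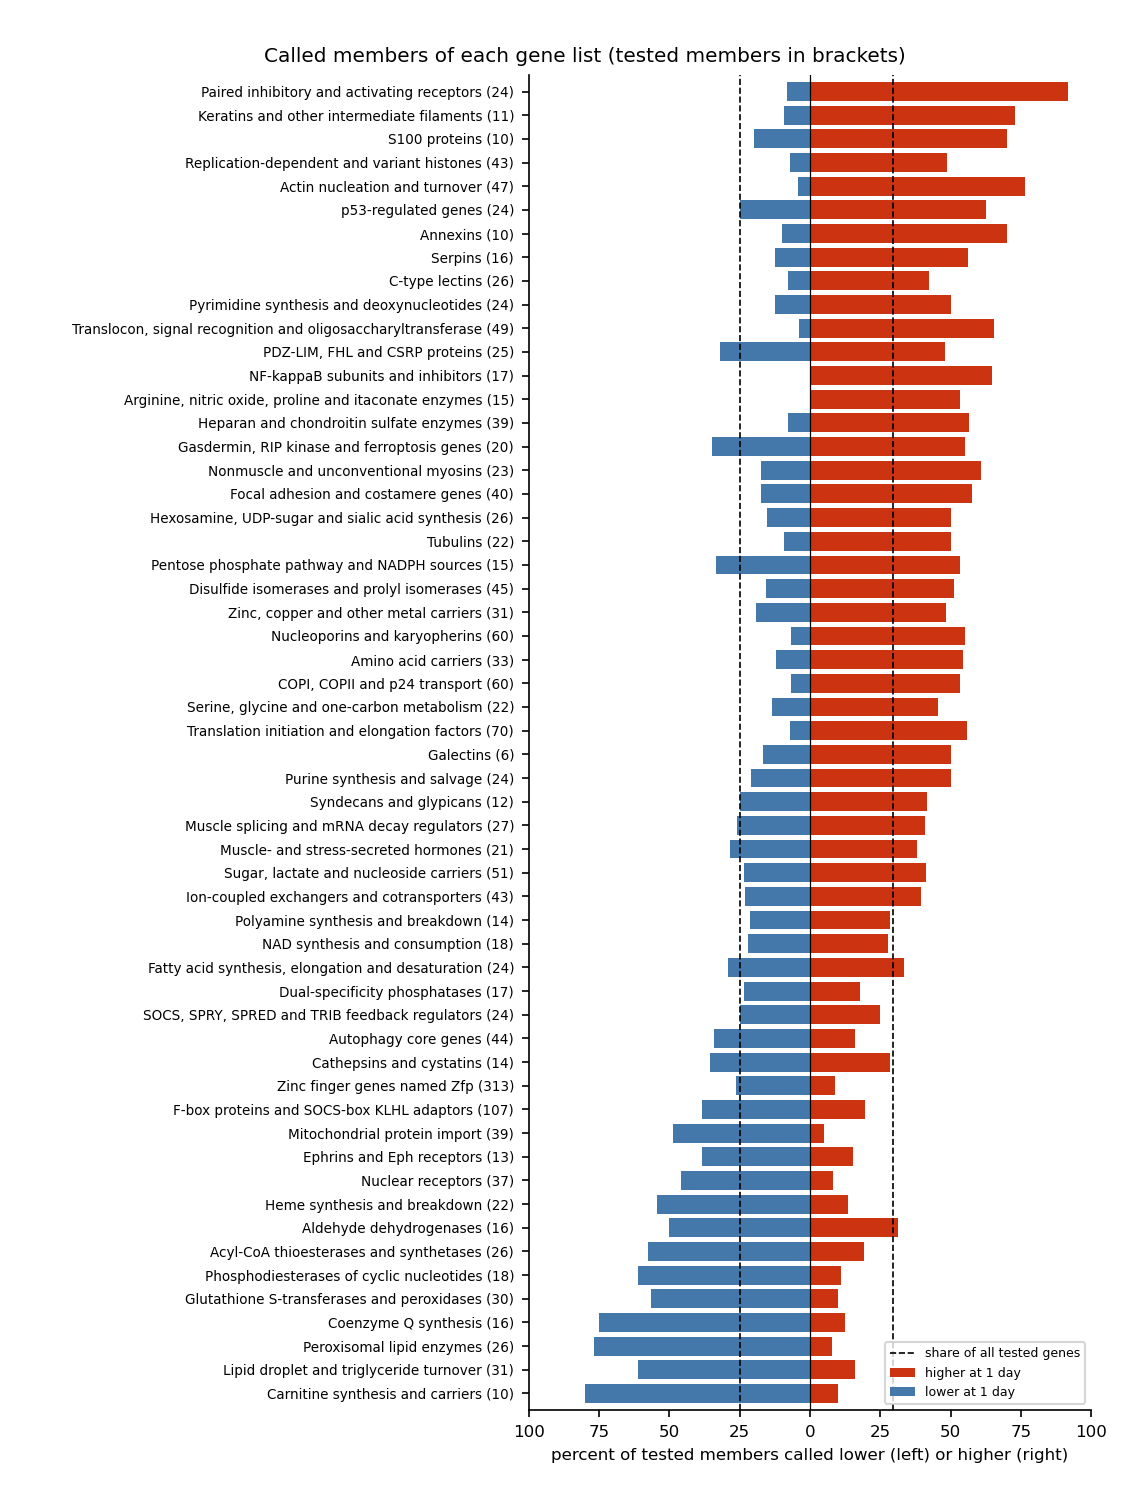
Percent of tested members of each gene family or pathway that rose (right) or fell (left) at 1 day, with the number tested in brackets. Dashed lines mark the shares over all 14124 genes, 29.4% and 24.8%, and families are ordered by median log2 fold from paired immune receptors at the top to carnitine genes at the bottom.

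Among regulators, more NF-kappaB genes rose than fell, and more phosphodiesterases fell than rose. More nuclear receptors fell than rose with TMM, and the reverse held with total count. With total count their median log2 fold, 0.18, was still below the 0.53 of all genes. Myc (ENSMUSG00000022346, chromosome 15, 61985391 to 61990374 of GRCm38), a transcription factor of growth and ribosome production, had 1.004, 0.842 and 0.702 CPM in sham mice 1, 2 and 3 and 10.9, 13.8 and 8.02 CPM in mice 4, 5 and 6. All 3 I/R mice lay above all sham mice, with mouse 6 lowest of the 3 (log2 fold 3.66, SE 0.24, edgeR adjusted p = 4.11e-06). Socs3, a feedback inhibitor of cytokine receptor signalling through Jak kinases, had 1.38, 1.25 and 1.72 CPM in sham mice 1, 2 and 3 and 15.7, 17.3 and 13.4 CPM in mice 4, 5 and 6. The I/R mice were close to each other (log2 fold 3.45, SE 0.21, edgeR adjusted p = 2.52e-06), and Stat3, the factor that carries the signal Socs3 limits, was also higher (0.81, SE 0.10) while Stat5b was lower (-0.63, SE 0.10, lost with total count). Among the feedback regulators of the SOCS, SPRY, SPRED and TRIB families with the calcineurin inhibitors, 6 of 24 tested rose and 6 fell (median log2 fold 0.09; 3 fell without mouse 2 or 4), against 15 rises and 0 falls with total count only. With TMM these shares, 25% and 25%, were near the 29.4% and 24.8% of all genes. Rises included Rcan1 (1.57, SE 0.18), which restrains the calcium-activated phosphatase calcineurin, and Trib1 (0.97, SE 0.14).

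The promoter of Socs3 is shown because STAT factors are known to act on this gene. Its RefSeq window on GRCm38.p6 (chr11:117969317-117969616, minus strand, 250 bases before to 50 after the start) is printed 5′ to 3′, with each match to TTCNNNGAA, searched on both strands, in capitals. The match ends 146 bases before the start site.
Socs3 promoter: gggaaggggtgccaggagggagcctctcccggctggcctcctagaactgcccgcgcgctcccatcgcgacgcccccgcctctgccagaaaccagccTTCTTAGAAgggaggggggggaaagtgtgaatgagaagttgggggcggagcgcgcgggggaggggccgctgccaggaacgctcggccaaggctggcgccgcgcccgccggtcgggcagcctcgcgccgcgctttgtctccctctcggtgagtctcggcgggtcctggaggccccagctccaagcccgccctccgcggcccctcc
The motif was in the windows of 8.74% of 3088 genes that rose, 7.91% of 2580 that fell and 8.24% of 4598 that were not called, so a match does not set Socs3 apart from other genes.

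NF-kappaB is a family of inflammatory transcription factors held in the cytoplasm by inhibitor proteins. Of its subunits and inhibitors, 11 of 17 tested rose and 0 fell (median log2 fold 0.52; 1 fell without mouse 6; 16 rises and 0 falls with total count). Among them at an unadjusted p under 0.05 in edgeR 0 fell, and DESeq2 and limma-voom called 0 and 0 lower. The rises included the atypical inhibitor Nfkbiz (1.43, SE 0.19) and the subunit gene Nfkb2 (0.85, SE 0.13). Runx1 (1.65, SE 0.34), which is needed for blood formation, and the myeloid factors Spi1 (1.91, SE 0.24) and Irf8 (1.12, SE 0.27) were higher. The latter 2 moved with the macrophage and monocyte markers, whose summed level was 98.3 to 109.96 CPM in sham and 195 to 214 CPM at 1 day, and the part of cell numbers in this was not tested.

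Nuclear receptors are transcription factors switched by hormones and lipids. Of these, 3 of 37 tested rose and 17 fell (median log2 fold -0.29), against 8 rises and 6 falls with total count only. Rxrg, a retinoid X receptor that pairs with other nuclear receptors, had 21.6, 23.4 and 20.2 CPM in sham mice 1, 2 and 3 and 5.77, 5.28 and 11.3 CPM in mice 4, 5 and 6. The groups did not overlap, with mouse 6 between the sham mice and mice 4 and 5 (log2 fold -1.57, SE 0.27, edgeR adjusted p = 0.00101). Ppara (-1.19, SE 0.23), a switch of fatty acid oxidation genes, and Esrrb (-1.15, SE 0.20) followed. The factors Foxo3 (-0.81, SE 0.15, lost with total count) and Mef2a (-0.89, SE 0.16), the latter an activator of muscle genes, were lower. Id1 (-0.998, SE 0.12), a partner that blocks bHLH factors, and Hey1 (-1.13, SE 0.20), a Notch target, were also lower. Foxo3, Mef2a, Id1 and Hey1 belong to lists outside the 56 described, which held rises too. Of HES, ID and BHLHE repressors, 9 of 28 tested rose and 8 fell (12 and 4 with total count). Of forkhead factors, 5 of 17 tested rose and 6 fell (7 and 1 with total count). Of T-box, GATA, MEF2 and HAND factors, 1 of 19 tested rose and 5 fell (5 and 1 with total count). Counts without single mice are not given for these lists. Zinc finger genes with Zfp symbols, mostly repressors or of unknown function, gave a balance that depended on the scaling: 28 of 313 tested rose and 82 fell (median log2 fold -0.16; 17 rose without mouse 4), against 86 rises and 5 falls with total count only. All genes moved the same way between these settings, and with total count the median of the Zfp genes, 0.32, was still below the 0.53 of all genes.

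Cyclic nucleotide phosphodiesterases break down cAMP and cGMP, the messengers of adrenergic and natriuretic signals in the heart. Of these, 2 of 18 tested rose and 11 fell (median log2 fold -0.55), against 2 rises and 6 falls with total count only. Pde4d, a main cAMP phosphodiesterase of heart muscle, had 37.7, 39.1 and 43.2 CPM in sham mice 1, 2 and 3 and 10.9, 11.99 and 20.3 CPM in mice 4, 5 and 6, so that every I/R mouse was below every sham mouse (log2 fold -1.48, SE 0.22, edgeR adjusted p = 4.37e-04). Pde7b (-1.62, SE 0.24), Pde7a (-1.15, SE 0.24) and Pde4a (-0.92, SE 0.22) were lower too, whereas the calmodulin-dependent Pde1a was higher (1.298, SE 0.27). Of dual-specificity phosphatases, only some of which switch off MAP kinases, 3 of 17 tested rose and 4 fell (median log2 fold 0.10), against 10 rises and 3 falls with total count only. As shares with TMM, 17.6% rose and 23.5% fell, against 29.4% and 24.8% of all genes. Dusp1, an immediate early member, was lower (-1.49, SE 0.19), as was Dusp18 (-1.39, SE 0.18), and Dusp27 was higher (1.15, SE 0.13).

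Of a list of genes linked to p53, not all of them established targets, 15 of 24 tested rose and 6 fell (median log2 fold 0.86; 17 rises and 2 falls with total count). The cell cycle inhibitor Cdkn1a (1.61, SE 0.18), the growth arrest gene Gadd45g (2.99, SE 0.28) and Phlda3 (1.41, SE 0.25), an Akt inhibitor, were higher. Ccng1, a cyclin induced by p53, instead had 581, 674 and 688 CPM in sham mice 1, 2 and 3 and 209.7, 236 and 356 CPM in mice 4, 5 and 6 (log2 fold -1.28, SE 0.19, edgeR adjusted p = 3.38e-04). Mice 4 and 5 were lowest and mouse 6 lay between them and sham. Sesn1, a stress-induced inhibitor of mTORC1, was also lower (-1.28, SE 0.22). Of regulators of muscle splicing and mRNA decay, 11 of 27 tested rose and 7 fell (median log2 fold 0.22; 7 rose without mouse 2 or 5; 16 rises and 1 fall with total count). Ptbp1 (1.34, SE 0.13), a splicing repressor that falls as muscle matures, and the fetal mRNA-binding gene Igf2bp2 (1.76, SE 0.28) were higher, and Rbfox1, a splicing factor of mature muscle and neurons, was lower (-1.66, SE 0.20).

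**Figure D2:**
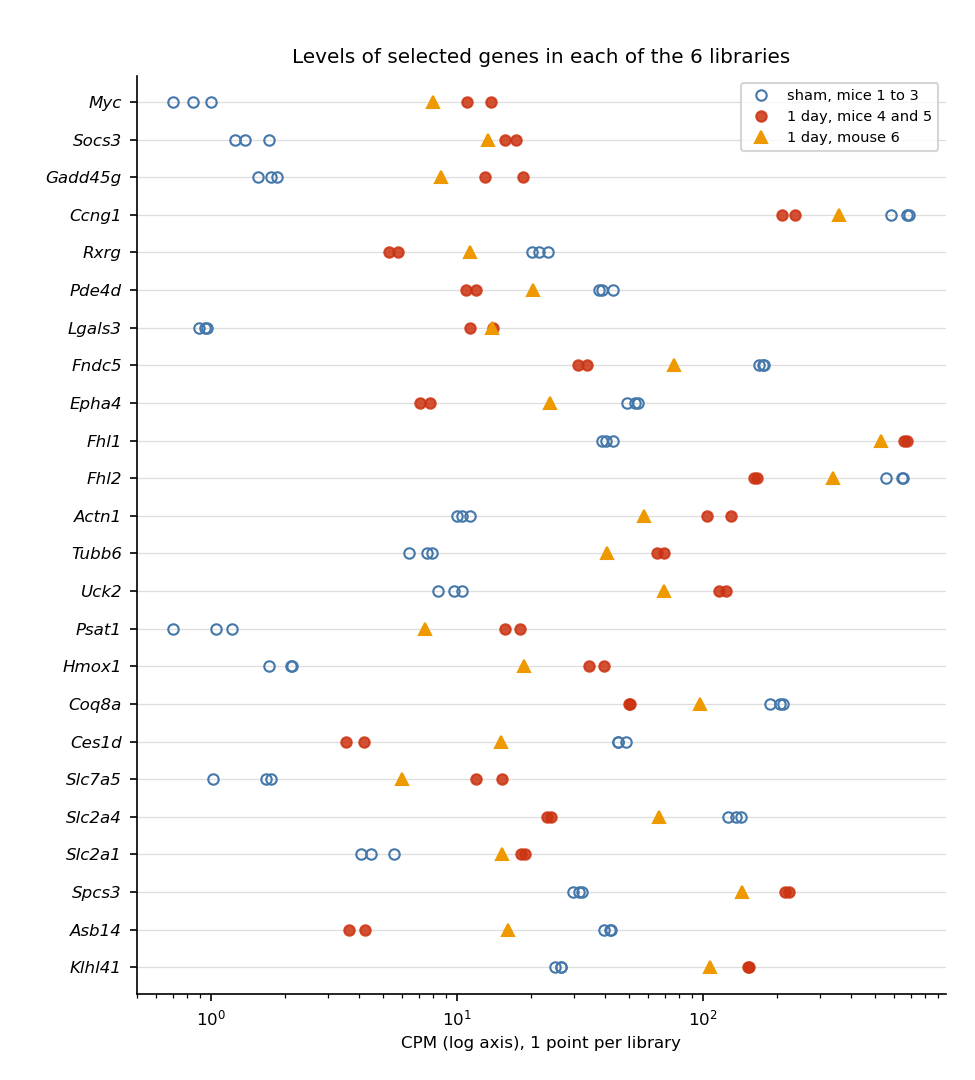
CPM of 24 genes in each library on a log axis, with open circles for sham mice 1 to 3, filled circles for mice 4 and 5 and a triangle for mouse 6. The groups do not overlap for any of these genes, and the triangle lies between mice 4 and 5 and sham for all of them except Lgals3, where mouse 6 lies between mice 4 and 5.

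Most tested serpins, S100 proteins and annexins rose, with falls in single members. Of the serpins, serine protease inhibitors, 9 of 16 tested rose and 2 fell (median log2 fold 0.74; 1 fell without mouse 1, 2, 3, 4 or 5; 10 rises and 0 falls with total count). Serpina3n (3.897, SE 0.42), Serpinb1a (3.06, SE 0.22), which inhibits neutrophil proteases, and Serpinh1 (1.31, SE 0.22), the collagen chaperone, were higher. Serping1, the inhibitor of complement C1, was lower (-0.93, SE 0.24, lost with total count). S100 proteins bind calcium inside and outside cells, and 7 of 10 tested rose and 2 fell (median log2 fold 1.44; 1 fell without mouse 1, 2, 4 or 5; 8 rises and 0 falls with total count). S100a4 (2.61, SE 0.28) and S100a10 (1.54, SE 0.23) were higher, and S100a1, the form of contractile muscle, was lower (-0.80, SE 0.13, lost with total count). Annexins bind membranes in the presence of calcium: 7 of 10 tested rose and 1 fell (median log2 fold 0.76; 7 rises and 0 falls with total count), with rises in Anxa2 (2.27, SE 0.25), the partner of S100a10, and Anxa7 (1.48, SE 0.12) and a fall in Anxa11 (-0.50, SE 0.12, lost with total count). Of the galectins, which bind galactose-bearing glycans, 3 of 6 tested rose and 1 fell (median log2 fold 0.31; 5 rises and 1 fall with total count). Lgals3, a lectin of activated macrophages, had 0.962, 0.943 and 0.894 CPM in sham mice 1, 2 and 3 and 11.3, 14.05 and 13.9 CPM in mice 4, 5 and 6 (log2 fold 3.79, SE 0.33, edgeR adjusted p = 2.91e-05). Here mouse 6 was as high as mouse 5, and sham was uniformly low. Lgals1 was also higher (0.91, SE 0.14).

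Of hormones secreted by muscle or under stress, 8 of 21 tested rose and 6 fell (median log2 fold 0.22; 5 rose without mouse 4; 12 rises and 4 falls with total count). These shares, 38.1% and 28.6%, were not far from the 29.4% and 24.8% of all genes. Fstl3 (4.02, SE 0.26), a follistatin-like inhibitor of activins, and Nucb2 (1.496, SE 0.28), the precursor of nesfatin, were higher. Fndc5, the membrane precursor of irisin, had 175, 177 and 169 CPM in sham mice 1, 2 and 3 and 33.6, 31.2 and 76.4 CPM in mice 4, 5 and 6. Mice 4 and 5 were close together, and mouse 6 was between them and sham (log2 fold -1.89, SE 0.30, edgeR adjusted p = 6.68e-04). Nampt, secreted as visfatin and inside the cell the enzyme that salvages nicotinamide, was lower (-1.23, SE 0.29). Manf, a factor released from the stressed endoplasmic reticulum, was higher (1.92, SE 0.21), while its relative Cdnf was lower (-1.37, SE 0.21).

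Heparan and chondroitin sulfate are sugar chains of matrix and cell surface that hold growth factors. Of the enzymes that build them, 22 of 39 tested rose and 3 fell (median log2 fold 0.49; 13, 12 and 14 rose without mice 2, 4 and 5 in turn; 30 rises and 1 fall with total count), with rises in the sulfotransferase Chst11 (1.85, SE 0.26), Csgalnact1 (1.42, SE 0.18), which starts chondroitin chains, and the epimerase Dse (1.08, SE 0.26). Of their carrier proteins, the syndecans, glypicans and others, 5 of 12 tested rose and 3 fell (median log2 fold 0.28; 8 rises and 1 fall with total count). Sdc1 (1.62, SE 0.25), Cspg4 (1.47, SE 0.12) and Sdc4 (1.02, SE 0.17) were higher and Gpc1 was lower (-1.07, SE 0.17). Ephrins and Eph receptors signal between touching cells: 2 of 13 tested rose and 5 fell (median log2 fold -0.27; 1 rose without mouse 3 or 4), against 4 rises and 3 falls with total count only. Epha4 had 53.01, 48.96 and 54.3 CPM in sham mice 1, 2 and 3 and 7.78, 7.104 and 23.8 CPM in mice 4, 5 and 6 (log2 fold -2.04, SE 0.42, edgeR adjusted p = 0.00304, -2.804 without mouse 6), so that mice 4 and 5 were lowest and mouse 6 lay between them and sham. Efnb3, one of the ligands of Eph receptors, was lower as well (-2.75, SE 0.46, -3.65 without mouse 6), and Epha2 was higher (0.76, SE 0.19).

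Paired immune receptors, which give activating or inhibiting signals in myeloid and lymphoid cells, were the family with the highest median among those described: 22 of 24 tested rose and 2 fell (median log2 fold 2.17; 22 rises and 1 fall with total count). Pirb, an inhibitory receptor, had 2.43, 2.12 and 3.96 CPM in sham mice 1, 2 and 3 and 12.9, 13.5 and 10.1 CPM in mice 4, 5 and 6 (log2 fold 2.16, SE 0.32, edgeR adjusted p = 4.90e-04). All I/R mice were above mouse 3, the highest sham mouse. Tyrobp (1.63, SE 0.21), the adaptor of many activating receptors, and Sirpa (0.77, SE 0.13) were higher, and Cd300lg, a member of capillary endothelium, was lower (-0.91, SE 0.22, lost with total count). Of the C-type lectins, carbohydrate receptors of phagocytes and endothelium, 11 of 26 tested rose and 2 fell (median log2 fold 0.72; 4 fell without mouse 6; 16 rises and 2 falls with total count). Clec3b, which encodes the plasma protein tetranectin, had the largest fall in log2 fold of the genes named here, with 4.896, 5.22 and 5.87 CPM in sham mice 1, 2 and 3 and 0.317, 0.357 and 1.61 CPM in mice 4, 5 and 6 (log2 fold -2.96, SE 0.45, edgeR adjusted p = 5.59e-04, -3.98 without mouse 6). Mouse 6 was the highest I/R mouse and below all sham mice. Fcgr1 (2.23, SE 0.34), an IgG receptor, Ms4a6d (2.81, SE 0.45) and Gpr35 (4.11, SE 0.35, 4.995 without mouse 1), a receptor of kynurenic acid, were higher. These moved with the neutrophil markers, whose summed level was 1.26 to 4.02 CPM in sham and 16.3 to 54.2 CPM at 1 day with mouse 6 lowest at 1 day and Ly6g at 0 counts in all 6 libraries, and with the macrophage and monocyte markers. The part of infiltrating cells in these rises was not tested. The summed level of 7 T and B lymphocyte markers was 0.639 to 0.921 CPM in sham and 0.313 to 0.833 CPM at 1 day, and none passed the filter on low counts.

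In each cytoskeletal family described, more genes rose than fell, as over all genes (29.4% and 24.8%). Of the genes of actin nucleation and turnover, 36 of 47 tested rose and 2 fell (median log2 fold 0.86; 44 rises and 0 falls with total count). Enah, which elongates actin filaments, had 42.01, 40.3 and 41.8 CPM in sham mice 1, 2 and 3 and 214, 198 and 145 CPM in mice 4, 5 and 6 (log2 fold 2.17, SE 0.14, edgeR adjusted p = 3.22e-06). Sham mice were nearly equal, and the lowest I/R mouse, mouse 6, was well above them. Capg (2.62, SE 0.25), an actin capping protein of macrophages, and Dbn1 (2.07, SE 0.27) were higher, and the muscle formin Fhod3 was lower (-0.81, SE 0.15, lost with total count). Of the nonmuscle and unconventional myosins, 14 of 23 tested rose and 4 fell (median log2 fold 0.44; 16 rises and 1 fall with total count), with rises in Myh9 (1.77, SE 0.19), the heavy chain of nonmuscle myosin, and Myo1f (1.84, SE 0.24) and a fall in Myo6 (-0.89, SE 0.09, lost with total count). Of the focal adhesion and costamere genes, which tie the cell to matrix, 23 of 40 tested rose and 7 fell (median log2 fold 0.44; 30 rises and 2 falls with total count). The nonmuscle alpha-actinin Actn1 had 11.3, 10.5 and 9.96 CPM in sham mice 1, 2 and 3 and 130.5, 104 and 57.4 CPM in mice 4, 5 and 6, an order of mouse 4, mouse 5 and mouse 6 from high to low (log2 fold 3.198, SE 0.29, edgeR adjusted p = 5.29e-05). Tln1 (1.68, SE 0.17) and Flna (1.59, SE 0.18) were higher, and Sgca, a sarcoglycan of the muscle membrane complex, was lower (-1.43, SE 0.26).

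Of the tubulins, the subunits of microtubules, 11 of 22 tested rose and 2 fell (median log2 fold 0.44; 15 rises and 2 falls with total count). The beta-tubulin Tubb6 had 7.57, 7.92 and 6.39 CPM in sham mice 1, 2 and 3 and 69.6, 64.8 and 40.6 CPM in mice 4, 5 and 6 (log2 fold 2.99, SE 0.21, edgeR adjusted p = 1.06e-05). Mice 4 and 5 were highest and mouse 6 was between them and sham. Tubb3 (4.74, SE 0.55), known from neurons, Tuba1c (2.19, SE 0.24) and Tubb2a (2.02, SE 0.21) were higher, whereas the alpha-tubulins of adult muscle Tuba4a (-0.96, SE 0.18) and Tuba8 (-1.29, SE 0.23) were lower. Of the keratin and other intermediate filament genes, 8 of 11 tested rose and 1 fell (median log2 fold 1.61; 9 rises and 1 fall with total count). Nes, the intermediate filament gene nestin of immature and injured muscle, had 24.8, 23.5 and 25.3 CPM in sham mice 1, 2 and 3 and 113, 128 and 79.5 CPM in mice 4, 5 and 6 (log2 fold 2.12, SE 0.16, edgeR adjusted p = 6.45e-06), with all I/R mice above all sham mice. Vim (1.79, SE 0.25) and Lmna (1.61, SE 0.23) were higher and Krt222 was lower (-1.82, SE 0.20). Many of these genes are also made by fibroblasts and leukocytes. Of 7 fibroblast markers, 1 rose and 3 fell, and their summed level was 396 to 560.5 CPM in sham and 404 to 501 CPM at 1 day. Their part and that of the leukocyte markers in the rises was not tested.

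LIM-domain proteins of the PDZ-LIM, FHL and CSRP groups bridge actin, titin and transcription factors: 12 of 25 tested rose and 8 fell (median log2 fold 0.53; 13 rises and 3 falls with total count). Fhl1 and Fhl2, its FHL members in heart and skeletal muscle, moved in opposite directions. Fhl1 (ENSMUSG00000023092, chromosome X, 56731787 to 56793346), which binds titin and senses stretch, had 43.2, 39.1 and 40.4 CPM in sham mice 1, 2 and 3 and 673, 655 and 528 CPM in mice 4, 5 and 6. Fhl2 (ENSMUSG00000008136, chromosome 1, 43123074 to 43196984), the FHL form of adult heart, had 643, 648 and 555 CPM in sham mice 1, 2 and 3 and 166, 162 and 339 CPM in mice 4, 5 and 6. Fhl1 rose in all 3 I/R mice (log2 fold 3.92, SE 0.19, edgeR adjusted p = 9.48e-07), and Fhl2 fell in all 3 (log2 fold -1.47, SE 0.26, edgeR adjusted p = 8.34e-04). Per exonic kilobase, the log2 ratio of Fhl1 to Fhl2 was -4.86, -5.02 and -4.75 in sham mice 1, 2 and 3 and 1.05, 1.05 and -0.33 in mice 4, 5 and 6. In sham Fhl1 was the lower in every library. At 1 day it was the higher in mice 4 and 5 and close to Fhl2 in mouse 6. Lmcd1 (1.603, SE 0.22), a LIM protein that promotes hypertrophy, was higher and Crip2 was lower (-1.22, SE 0.27).

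The promoters of Fhl1 and Fhl2 are shown because the genes moved in opposite directions while both windows hold a CArG box, the motif known to bind serum response factor. They come from RefSeq on GRCm38.p6, for Fhl1 chrX:56779433-56779732 (plus strand) and for Fhl2 chr1:43196712-43197011 (minus strand), 5′ to 3′, with the CArG box, searched on both strands, in capitals.
Fhl1 promoter: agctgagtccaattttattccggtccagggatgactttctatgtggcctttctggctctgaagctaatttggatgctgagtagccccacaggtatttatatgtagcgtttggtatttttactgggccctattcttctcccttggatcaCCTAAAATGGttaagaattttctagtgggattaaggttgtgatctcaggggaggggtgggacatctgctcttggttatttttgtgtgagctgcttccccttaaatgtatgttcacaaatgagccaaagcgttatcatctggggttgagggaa
Fhl2 promoter: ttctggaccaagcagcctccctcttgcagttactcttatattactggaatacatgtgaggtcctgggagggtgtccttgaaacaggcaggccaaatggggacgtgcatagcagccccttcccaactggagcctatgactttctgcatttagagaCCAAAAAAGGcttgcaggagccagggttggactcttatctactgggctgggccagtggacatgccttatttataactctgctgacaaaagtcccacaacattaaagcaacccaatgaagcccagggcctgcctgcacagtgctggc
The box ends 93 bases before the start site in Fhl1 and 87 bases before it in Fhl2. A second window of Fhl2 also holds a box, 22 bases before its start, and a second window of Fhl1 holds none. A CArG box was in the windows of 1.75% of 3088 genes that rose, 1.55% of 2580 that fell and 1.48% of 4598 that were not called.

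In branches that build nucleotides, serine, arginine products and sugars, more genes rose than fell, as over all genes (29.4% and 24.8%). In branches of carnitine, acyl-CoA, coenzyme Q and peroxisomal lipids, more fell than rose with TMM and with total count. For lipid droplet, heme and glutathione genes the larger number of falls was not kept with total count. Their median log2 folds in that setting, -0.21, 0.16 and -0.08 in turn, were still below the 0.53 of all genes. In pyrimidine synthesis and deoxynucleotide supply, 12 of 24 tested rose and 3 fell (median log2 fold 0.55; 17 rises and 0 falls with total count). Uck2 (ENSMUSG00000026558, chromosome 1, 167222883 to 167285320), the uridine-cytidine kinase of the salvage route, had 9.71, 10.4 and 8.37 CPM in sham mice 1, 2 and 3 and 124, 116 and 69.4 CPM in mice 4, 5 and 6. The I/R values were far above sham, with mouse 6 the lowest of the 3 (log2 fold 3.43, SE 0.24, edgeR adjusted p = 1.09e-05). Ctps (1.93, SE 0.18), which makes CTP from UTP, and Cad (1.42, SE 0.17), which starts de novo synthesis, were higher, and the p53-dependent ribonucleotide reductase subunit Rrm2b was lower (-0.66, SE 0.14, lost with total count). In purine synthesis and salvage, 12 of 24 tested rose and 5 fell (median log2 fold 0.30; 17 rises and 0 falls with total count). Aprt (1.65, SE 0.19), Ampd2 (1.51, SE 0.19) and Impdh1 (1.39, SE 0.18), the gateway to guanine nucleotides, were higher, and the muscle enzyme Adssl1 was lower (-0.74, SE 0.13, lost with total count).

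In serine, glycine and one-carbon metabolism, 10 of 22 tested rose and 3 fell (median log2 fold 0.34; 12 rises and 0 falls with total count). Psat1, a transaminase of serine synthesis, had 1.05, 1.21 and 0.702 CPM in sham mice 1, 2 and 3 and 17.98, 15.7 and 7.39 CPM in mice 4, 5 and 6. The groups were well apart, with mice 4 and 5 above mouse 6 (log2 fold 3.74, SE 0.39, edgeR adjusted p = 7.90e-05). Mthfd2 (3.14, SE 0.52), the mitochondrial folate enzyme of growing cells, and Tyms (1.75, SE 0.28), which makes thymidylate, were higher, and methionine synthase Mtr was lower (-0.63, SE 0.13, lost with total count). Polyamines are small cations needed for growth. Of the genes of their synthesis and breakdown, 4 of 14 tested rose and 3 fell (median log2 fold 0.14; 7 rises and 0 falls with total count), shares near those of all genes with TMM. The rate-limiting decarboxylase Odc1 (1.76, SE 0.14), spermidine synthase Srm (2.03, SE 0.23) and Azin1 (1.29, SE 0.12), which protects Odc1 from breakdown, were higher. The antizymes that target Odc1 for breakdown, Oaz1 (-0.57, SE 0.11, lost with total count) and Oaz2 (-0.61, SE 0.09, lost with total count), were lower.

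In the arginine, nitric oxide, proline and itaconate branch, 8 of 15 tested rose and 0 fell (median log2 fold 0.50; 1 fell without mouse 3 or 6; 10 rises and 0 falls with total count). Among them at an unadjusted p under 0.05 in edgeR 1 fell, and DESeq2 and limma-voom called 1 and 1 lower. Arg1, the arginase of alternatively activated macrophages and liver, had 1.21, 0 and 0 CPM in sham mice 1, 2 and 3 and 20.5, 23.5 and 11.5 CPM in mice 4, 5 and 6 (log2 fold 5.45, SE 0.71, edgeR adjusted p = 3.32e-04, 12.02 without mouse 1, 4.696 without mouse 2). The sham level rests on mouse 1, since mice 2 and 3 had 0 counts, which allows up to 0.101 and 0.192 CPM for counting error alone, and its fitted fold is therefore no measure of size. Aldh18a1 (1.77, SE 0.28), an enzyme of proline synthesis, was higher. Of the genes of the pentose phosphate pathway and other NADPH sources, 8 of 15 tested rose and 5 fell (median log2 fold 0.40; 8 rises and 2 falls with total count). G6pdx (1.58, SE 0.17) and Pgd (1.14, SE 0.13), the oxidative pentose phosphate enzymes, and the NAD kinase Nadk (0.95, SE 0.12) were higher, while the mitochondrial sources Nnt (-0.99, SE 0.19) and Me3 (-1.01, SE 0.16) and the cytosolic Idh1 (-0.64, SE 0.11, lost with total count) were lower. In hexosamine, UDP-sugar and sialic acid synthesis, 13 of 26 tested rose and 4 fell (median log2 fold 0.44; 2 fell without mouse 1 or 5; 16 rises and 1 fall with total count), with rises in Nans (1.84, SE 0.23), Galk1 (1.15, SE 0.21) and Ugdh (1.1003, SE 0.23), which supplies glycosaminoglycan chains, and a fall in Ugp2 (-1.02, SE 0.14), which supplies glycogen. In NAD metabolism, 5 of 18 tested rose and 4 fell (median log2 fold 0.13; 3 rose without mouse 2; 11 rises and 2 falls with total count), again near the shares of all genes with TMM. Nmrk2, the muscle kinase of nicotinamide riboside, rose (4.88, SE 0.40) and Nmnat1 fell (-0.89, SE 0.17, lost with total count), as did Nampt.

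**Figure D3:**
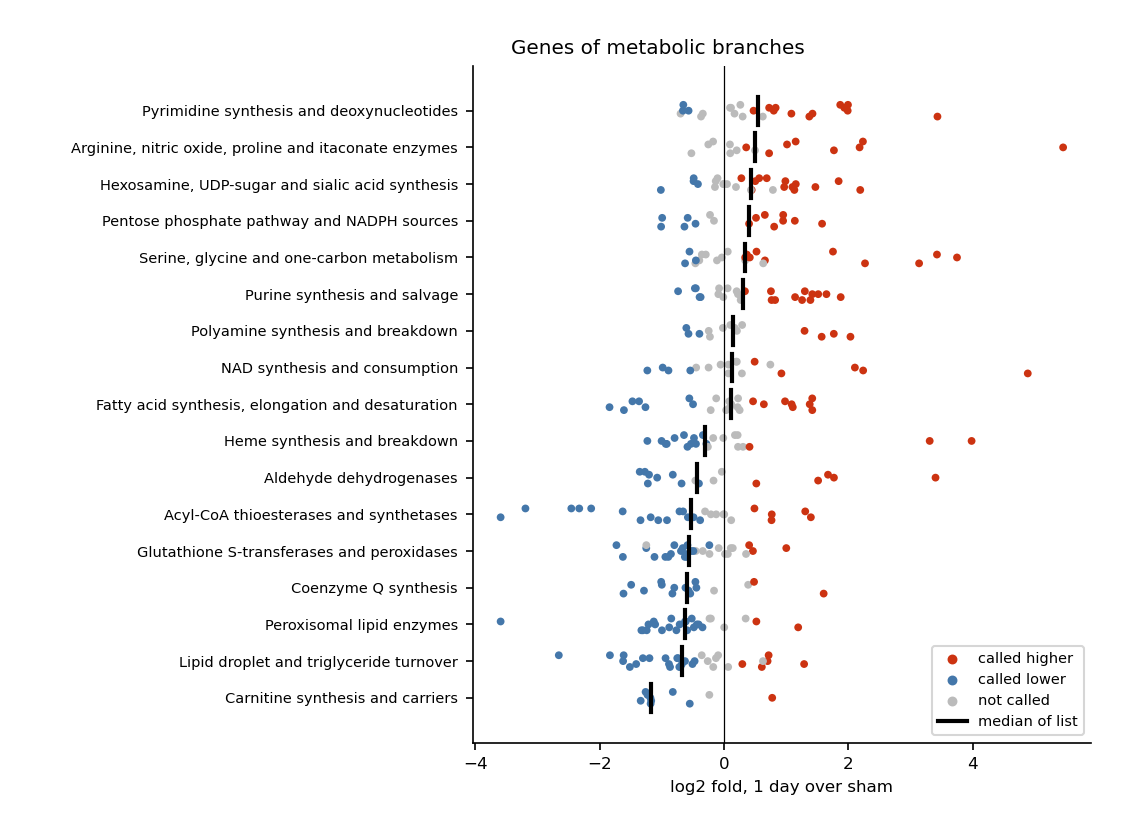
Log2 fold of 1 day over sham for every tested gene of the metabolic branches described, coloured by whether it was called higher, lower or not, with a bar at the median of each branch. Medians run from -1.18 for carnitine genes to 0.55 for pyrimidine genes, and most branches hold members on both sides of 0.

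In carnitine synthesis and transport, which carry fatty acids into mitochondria, 1 of 10 tested rose and 8 fell (median log2 fold -1.18), against 1 rises and 6 falls with total count only. The falls included Cpt2 (-1.34, SE 0.22), Slc25a20 (-1.18, SE 0.18) and Crat (-1.18, SE 0.21). Of the genes of lipid droplets and triglyceride turnover, 5 of 31 tested rose and 19 fell (median log2 fold -0.68; 3 rose without mouse 3), against 7 rises and 7 falls with total count only. Ces1d (ENSMUSG00000056973, chromosome 8, 93166068 to 93197838), a carboxylesterase that hydrolyses triglyceride, had 45.4, 48.5 and 45.2 CPM in sham mice 1, 2 and 3 and 3.53, 4.21 and 15.1 CPM in mice 4, 5 and 6. All I/R values were below sham, and mice 4 and 5 were far below mouse 6 (log2 fold -2.66, SE 0.55, edgeR adjusted p = 0.00367, -3.605 without mouse 6). Dgat2 (-1.83, SE 0.40, -2.53 without mouse 6), Lpin1 (-1.51, SE 0.31) and Plin5 (-1.61, SE 0.31), the droplet coat of oxidative tissue, were lower, and Plin2, the general droplet coat, was higher (0.70, SE 0.13). Of acyl-CoA thioesterases and synthetases, 5 of 26 tested rose and 15 fell (median log2 fold -0.54), against 6 rises and 9 falls with total count only. Acsl1, the main synthetase for fatty acid oxidation in heart, had 489, 493 and 497 CPM in sham mice 1, 2 and 3 and 125, 102 and 251 CPM in mice 4, 5 and 6 (log2 fold -1.63, SE 0.29, edgeR adjusted p = 0.001004). Sham mice were nearly equal, and mouse 6 was the highest I/R mouse. Acot2 was lower (-1.34, SE 0.19), and Acsl4 (0.76, SE 0.12), which prefers arachidonate, and Acot9 (1.31, SE 0.15) were higher. Of fatty acid synthesis and elongation genes, 8 of 24 tested rose and 7 fell (median log2 fold 0.11; 13 rises and 5 falls with total count). As shares, 33.3% rose and 29.2% fell, near the 29.4% and 24.8% of all genes. Fasn (1.11, SE 0.13) and Elovl1 (1.42, SE 0.15) were higher, and Mlycd (-1.47, SE 0.21), which removes malonyl-CoA, was lower. Of peroxisomal lipid enzymes, 2 of 26 tested rose and 20 fell (median log2 fold -0.62), against 3 rises and 8 falls with total count only. The importer Abcd3 was lower (-1.21, SE 0.16), and Far1, which makes the alcohols for ether lipids, was higher (1.19, SE 0.18). These falls moved with those of the cardiomyocyte and the smooth muscle and pericyte markers given above, and the part of lost muscle cells in them was not tested.

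Coenzyme Q is the mobile electron carrier of the respiratory chain. Of the genes of its synthesis, 2 of 16 tested rose and 12 fell (median log2 fold -0.59), against 3 rises and 5 falls with total count only. Coq8a, an atypical kinase needed for its synthesis, had 211, 206 and 187 CPM in sham mice 1, 2 and 3 and 50.1, 50.5 and 97.1 CPM in mice 4, 5 and 6 (log2 fold -1.62, SE 0.24, edgeR adjusted p = 3.68e-04), so that mouse 6 was again between sham and mice 4 and 5. Coq9 (-1.29, SE 0.19) and Coq10a (-1.49, SE 0.22) were lower. In heme synthesis and breakdown, 3 of 22 tested rose and 12 fell (median log2 fold -0.31), against 7 rises and 2 falls with total count only. Hmox1, the inducible heme oxygenase, had 2.13, 1.72 and 2.11 CPM in sham mice 1, 2 and 3 and 34.4, 39.7 and 18.8 CPM in mice 4, 5 and 6 (log2 fold 3.98, SE 0.32, edgeR adjusted p = 2.58e-05). All I/R mice were above all sham mice, and mouse 6 was the lowest of them. Alas1 (-0.94, SE 0.18) and Fech (-0.92, SE 0.10), the first and last enzymes of heme synthesis, were lower. Red blood cell markers also fell, 5 of 5 tested, with a summed level of 93.4 to 154 CPM in sham and 51.8 to 73.4 CPM at 1 day, and their part in the heme list was not tested. Of glutathione S-transferases and peroxidases, 3 of 30 tested rose and 17 fell (median log2 fold -0.56), against 6 rises and 4 falls with total count only. Gstm7 (-1.25, SE 0.24) and Gstk1 (-1.12, SE 0.21) were lower, and Gpx1 (1.001, SE 0.16) and Gsr (0.93, SE 0.14), which regenerates glutathione, were higher. Of aldehyde dehydrogenases, 5 of 16 tested rose and 8 fell (median log2 fold -0.43), against 5 rises and 5 falls with total count only. Aldh1a2 (3.3996, SE 0.25), which makes retinoic acid, was higher and Aldh1a1 (-1.35, SE 0.20) was lower.

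Among membrane carriers, more genes for amino acids, sugars and metals rose than fell, as over all genes (29.4% and 24.8%). The shares that rose and fell were 54.5% and 12.1% of amino acid carriers and 48.4% and 19.4% of metal carriers. Those of sugar, lactate and nucleoside carriers, 41.2% and 23.5%, were nearer to all genes. Of amino acid carriers, 18 of 33 tested rose and 4 fell (median log2 fold 0.35; 20 rises and 2 falls with total count). Slc7a5, which brings in leucine and other large neutral amino acids, had 1.67, 1.75 and 1.02 CPM in sham mice 1, 2 and 3 and 15.3, 11.9 and 5.96 CPM in mice 4, 5 and 6 (log2 fold 2.86, SE 0.36, edgeR adjusted p = 1.96e-04). Mice 4, 5 and 6 stood in that order from high to low, all above sham. Slc7a2 (1.48, SE 0.28), for arginine, and Slc6a6 (1.45, SE 0.13), for taurine, were higher, and Slc36a2 (-1.998, SE 0.31) and the glutamine carrier Slc38a3 (-1.59, SE 0.39, -2.31 without mouse 6) were lower. Of carriers of sugars, lactate and nucleosides, 21 of 51 tested rose and 12 fell (median log2 fold 0.21; 28 rises and 5 falls with total count). Slc2a4, the insulin-responsive glucose carrier of muscle, had 143, 136 and 127 CPM in sham mice 1, 2 and 3 and 23.3, 24.2 and 66.3 CPM in mice 4, 5 and 6 (log2 fold -1.84, SE 0.37, edgeR adjusted p = 0.00287, -2.52 without mouse 6), lowest in mice 4 and 5. Slc2a12, another insulin-responsive form, was also lower (-2.42, SE 0.39, -3.23 without mouse 6). Slc2a1, the basal glucose carrier, had 5.52, 4.48 and 4.09 CPM in sham mice 1, 2 and 3 and 18.2, 18.97 and 15.2 CPM in mice 4, 5 and 6 (log2 fold 1.89, SE 0.13, edgeR adjusted p = 5.31e-06). For Slc2a1 the I/R mice were close together, whereas for Slc2a4 mouse 6 stood apart from mice 4 and 5. Slc16a3, which exports lactate, was higher (3.43, SE 0.32). Of carriers of zinc, copper and other metals, 15 of 31 tested rose and 6 fell (median log2 fold 0.37; 3 fell without mouse 2; 19 rises and 1 fall with total count), with rises in the zinc carriers Slc39a6 (2.43, SE 0.25) and Slc39a13 (1.69, SE 0.14) and the phagocyte carrier Slc11a1 (1.9001, SE 0.24) and a fall in Slc41a3 (-2.11, SE 0.33), a magnesium carrier.

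In the secretory route and in translation, more than 50% of the tested genes of each family rose. Of the translocon, signal recognition and oligosaccharyltransferase genes, which pass new proteins into the endoplasmic reticulum, 32 of 49 tested rose and 2 fell (median log2 fold 0.54; 0, 1, 1, 0 and 1 fell without mice 1, 2, 4, 5 and 6 in turn; 39 rises and 0 falls with total count). Spcs3 (ENSMUSG00000054408, chromosome 8, 54520433 to 54529998), a subunit of signal peptidase, had 32.4, 31.4 and 29.7 CPM in sham mice 1, 2 and 3 and 215, 225 and 144 CPM in mice 4, 5 and 6. Mice 4 and 5 were close to each other, and mouse 6 was lower than both but far above sham (log2 fold 2.64, SE 0.16, edgeR adjusted p = 2.99e-06). Sec61a1, the channel itself, was higher (1.303, SE 0.18). Of the COPI, COPII and p24 genes of vesicle transport, 32 of 60 tested rose and 4 fell (median log2 fold 0.34; 47 rises and 0 falls with total count), with rises in Sec23b (1.11, SE 0.14) and Surf4 (0.98, SE 0.13). Of disulfide and prolyl isomerases, which fold proteins, 23 of 45 tested rose and 7 fell (median log2 fold 0.38; 33 rises and 3 falls with total count). Pdia4 (2.51, SE 0.27), Pdia6 (1.95, SE 0.15), P4hb (1.498, SE 0.22) and the steroid-responsive Fkbp5 (1.48, SE 0.21) were higher, and Fkbp4 was lower (-1.31, SE 0.16). Of translation initiation and elongation factors, 39 of 70 tested rose and 5 fell (median log2 fold 0.34; 3 fell without mouse 2 or 5; 55 rises and 0 falls with total count). Eif1a (1.95, SE 0.21), Eif6 (1.94, SE 0.26) and Eif4a1 (1.38, SE 0.12) were higher, while the cap-binding Eif4e (-0.63, SE 0.10, lost with total count) and the muscle and neuron elongation factor Eef1a2 (-0.60, SE 0.17, lost with total count) were lower. Of nucleoporins and karyopherins, which carry cargo through the nuclear envelope, 33 of 60 tested rose and 4 fell (median log2 fold 0.36; 52 rises and 0 falls with total count), and Rangap1 was among the rises (1.55, SE 0.16).

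Adaptors of ubiquitin ligases with F-box, KLHL and SOCS-box (ASB) domains gave a balance that turned with the scaling: 21 of 107 tested rose and 41 fell (median log2 fold -0.17; 12, 12, 13, 7 and 12 rose without mice 1, 2, 3, 4 and 5 in turn), against 38 rises and 16 falls with total count only. All genes moved the same way between these settings, and with total count the median of these adaptors, 0.31, was still below the 0.53 of all genes. The muscle ASB genes named here were lower under both scalings. Asb14 had 41.7, 42.4 and 39.8 CPM in sham mice 1, 2 and 3 and 4.23, 3.65 and 16.2 CPM in mice 4, 5 and 6 (log2 fold -2.41, SE 0.48, edgeR adjusted p = 0.00295, -3.38 without mouse 6), with mouse 6 between sham and mice 4 and 5. Asb15 (-2.26, SE 0.60, -3.54 without mouse 6), Asb10 (-2.23, SE 0.45, -3.095 without mouse 6) and the sarcomeric Fbxl22 (-2.57, SE 0.24) were also lower, although Asb15 was not called in a fit without the 14-day mice. Klhl41, which stabilises sarcomere proteins, instead had 24.9, 26.4 and 26.5 CPM in sham mice 1, 2 and 3 and 153, 153 and 107 CPM in mice 4, 5 and 6 (log2 fold 2.41, SE 0.14, edgeR adjusted p = 1.85e-06), with all I/R mice above sham. Its relative Klhl40 was higher too (2.39, SE 0.29). Of the genes of mitochondrial protein import, 2 of 39 tested rose and 19 fell (median log2 fold -0.26; 1, 1, 0, 1 and 4 rose without mice 1, 2, 4, 5 and 6 in turn), against 8 rises and 1 fall with total count only. Dnajc15 (-0.97, SE 0.11), Oxa1l (-0.79, SE 0.13, lost with total count) and Timm21 (-0.75, SE 0.17, lost with total count) were lower.

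Several related genes moved in opposite directions, and 10 such pairs were picked after their values were seen. Mycn, Acaca and Slc16a1, named only as members of these pairs, had log2 folds of -2.07 (SE 0.31), 0.64 (SE 0.11) and -0.79 (SE 0.12, lost with total count). A ratio of genes within a library does not depend on how libraries are scaled, and it was taken per exonic kilobase. The log2 ratio of the galectins Lgals3 to Lgals4 was -3.17, -2.76 and -3.45 in sham mice 1, 2 and 3 and 2.95, 3.36 and 1.73 in mice 4, 5 and 6, with Lgals4, a galectin of epithelia, lower at 1 day (-1.87, SE 0.45, -2.52 without mouse 6). That of Myc to Mycn was -1.25, -0.98 and -1.75 in sham mice 1, 2 and 3 and 4.88, 5.02 and 3.37 in mice 4, 5 and 6. Mycn had only 0.452, 0.516 and 0.94 CPM in mice 4, 5 and 6, 54 counts in all, so the size of this ratio at 1 day is uncertain. In both pairs the first gene was below the second in every sham library and above it in every I/R library. The log2 ratio of the glucose carriers Slc2a1 to Slc2a4 was -4.71, -4.94 and -4.96 in sham mice 1, 2 and 3 and -0.37, -0.36 and -2.13 in mice 4, 5 and 6, so that Slc2a4 remained the higher in every library. Lactate carriers gave a ratio of Slc16a3 to Slc16a1 of -7.78, -8.29 and -8.34 in sham mice 1, 2 and 3 and -3.49, -3.77 and -4.46 in mice 4, 5 and 6. The coenzyme Q kinases Coq8b (1.602, SE 0.16) and Coq8a gave -6.73, -6.68 and -6.897 in sham mice 1, 2 and 3 and -3.01, -3.09 and -4.302 in mice 4, 5 and 6. The acetyl-CoA carboxylases Acaca, of lipid synthesis, and Acacb (-1.37, SE 0.27), which restrains fatty acid entry into mitochondria, gave -6.41, -6.46 and -6.28 in sham mice 1, 2 and 3 and -4.04, -3.74 and -5.11 in mice 4, 5 and 6. In these last 4 pairs the second gene was the higher per kilobase in all 6 libraries, and the gap was smaller at 1 day. The alpha-tubulins Tuba1c and Tuba4a gave -5.75, -5.92 and -6.05 in sham mice 1, 2 and 3 and -2.41, -2.32 and -3.62 in mice 4, 5 and 6, again below 0 in every library. The secreted factors Manf and Cdnf gave 0.09, -0.08 and -0.67 in sham mice 1, 2 and 3 and 3.89, 3.24 and 2.03 in mice 4, 5 and 6. The calcineurin regulators Rcan1 and Rcan2 (-0.56, SE 0.15, lost with total count) gave -1.59, -1.48 and -1.75 in sham mice 1, 2 and 3 and 0.94, 0.80 and -0.14 in mice 4, 5 and 6. The mean change in log2 ratio over the pairs ran from 2.08 for Acaca over Acacb to 5.805 for Lgals3 over Lgals4. The groups did not overlap for any pair, which follows from the choice of genes that moved in opposite directions without overlap.

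**Figure D4:**
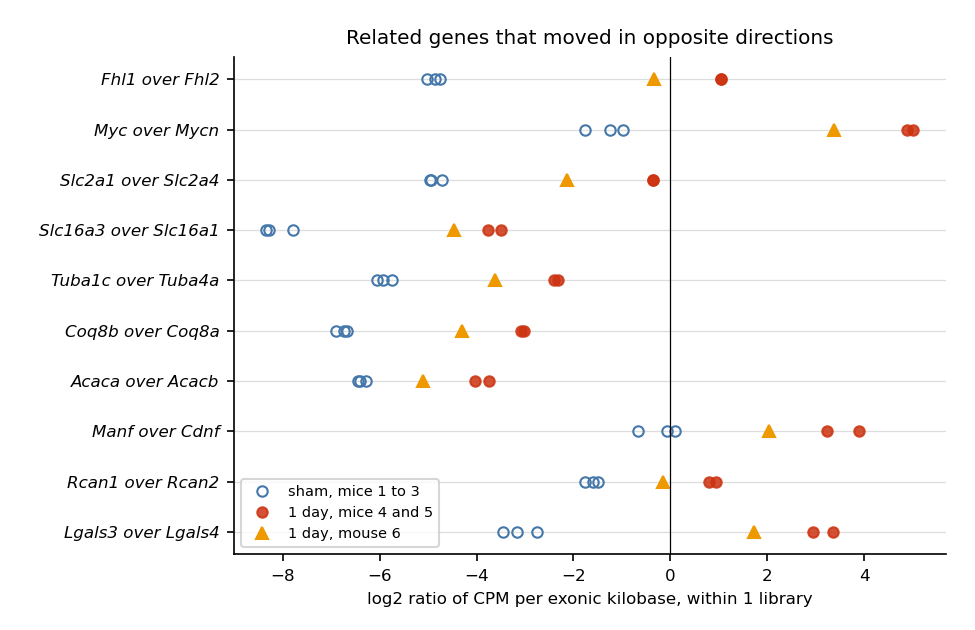
Log2 ratio of CPM per exonic kilobase of the first gene over the second within each library, with open circles for sham mice 1 to 3, filled circles for mice 4 and 5 and a triangle for mouse 6. Every ratio moved to the right at 1 day, as the choice of pairs ensured, and in each pair the triangle lies between the sham mice and mice 4 and 5.

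Mouse 6 was nearer to sham than mice 4 and 5 in most families. Among the 7387 called genes whose groups did not overlap, mouse 6 was the nearest of the 3 to the sham mean for 6062, or 82.1%, against 667 for mouse 4 and 658 for mouse 5. The median log2 distance from sham was 0.88, 0.86 and 0.54 for mice 4, 5 and 6. Without mouse 6, 4639 genes rose and 3873 fell, and 7445 of the 7644 calls were made again in the same direction. Cardiomyocyte markers summed to 35641, 33652 and 50389 CPM in mice 4, 5 and 6, and neutrophil markers to 49.2, 54.2 and 16.3 CPM. How much injured tissue each sample held was not measured, and its part was not tested.

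Histone genes were higher in mice 4 and 5 but not, by their median, in mouse 6. Histones package DNA, and the replication-dependent ones are made while DNA is copied. Of replication-dependent and variant histones, 21 of 43 tested rose and 3 fell (median log2 fold 0.89; 13, 13, 12 and 13 rose without mice 1, 2, 4 and 5 in turn; 30 rises and 2 falls with total count). Their median log2 level above sham, a difference, was 1.104, 1.12 and -0.25 in mice 4, 5 and 6. Without mouse 6, 31 of these histone genes rose and 4 fell (median log2 fold 1.17). The linker histone Hist1h1d had 3.35, 3.17 and 3.26 CPM in sham mice 1, 2 and 3 and 10.8, 10.8 and 3.76 CPM in mice 4, 5 and 6 (log2 fold 1.39, SE 0.35, edgeR adjusted p = 0.00716), so that mouse 6 was close to sham. Hist1h1a, another linker histone, was higher (2.56, SE 0.47), and the variant gene H2afv was lower (-1.09, SE 0.13), with 4.57, 4.13 and 5.73 CPM in mice 4, 5 and 6. Histone genes lie in clusters of similar copies, so reads may be shared among them and single members are uncertain.

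**Figure D5:**
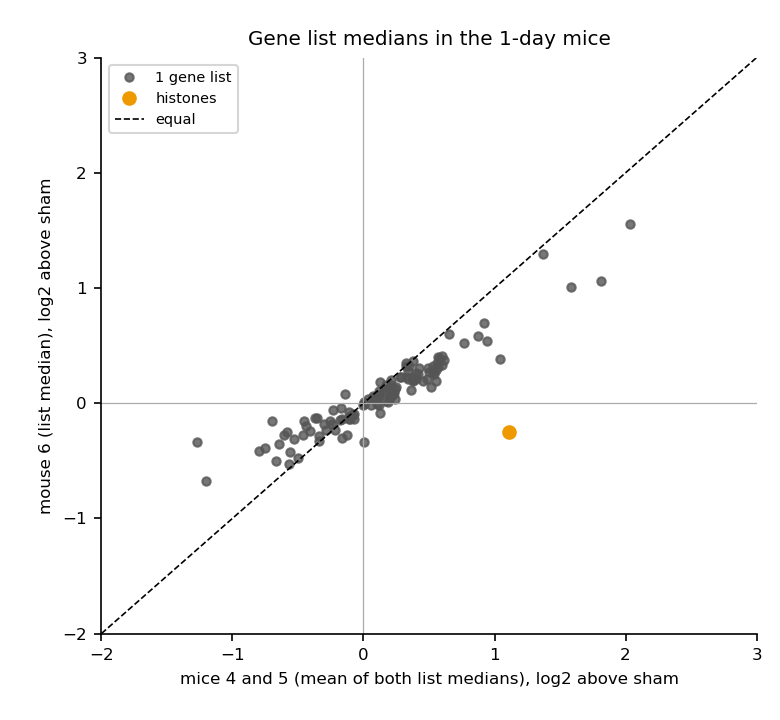
Median log2 level above the sham mean of each of 117 gene lists with at least 5 tested members, for mouse 6 (vertical axis) against the mean of mice 4 and 5 (horizontal axis), with a dashed line where both would be equal. Mouse 6 has the smallest median of the 3 mice, counted in the direction of the list's median log2 fold, for 82 lists. For 9 lists its median has the opposite sign to that fold, and the histone list lies at -0.25 in mouse 6.

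Genes named here that share at least 10% of their exonic bases with another annotated gene have uncertain counts, namely Coq8b, Fstl3, G6pdx, Gpc1, Klhl40, Nans, Nfkb2, Nmrk2, Nnt, Piezo1, Ptbp1, S100a4, Tuba4a and Tuba8.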

How the data were processed

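The left ventricle of 9 mice was profiled, of which the 6 sham and 1-day libraries are compared. Per the labels' protocols, TRIzol RNA was depleted of ribosomal RNA and sequenced as stranded total RNA libraries. The submitters' processing notes name STAR 2.7.1a and GRCm38. The authors deposited raw counts (whole numbers of reads for each gene). How reads were assigned to genes, with which annotation and strand setting, is not given in the sources used here. GENCODE release M21 held 36429 of the 38293 genes and gave names and positions. Chi-square values over degrees of freedom between replicates were 6.898 to 89.7, above sampling noise, so each library counted as 1 replicate.

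All 9 libraries entered 1 quasi-likelihood fit (edgeR 4.0.16, R 4.3.3) with TMM scaling, the default low-count filter and robust dispersions, and the 1-day and sham groups were contrasted. P-values were adjusted by Benjamini and Hochberg over 14124 genes, with a threshold of 0.05. The procedure was tested on simulated data in which few genes changed, evenly up and down, and no library stood apart from its group. That test therefore does not bear on the choice of scaling or on mouse 6. The 56 lists described and the genes named were chosen with earlier results of these data known. Of the 2434 genes of these lists in the table, 1875 passed the filter. A gene could be named if it was among the 4 largest called log2 folds of its list in its direction, or the 20 largest of all genes, with no overlap between groups a mean of at least 5 CPM (10 CPM for all genes) in the group where it was higher and, for all genes, no symbol of a predicted or clone-based gene. Some of these are named. Mycn, Acaca and Slc16a1 were chosen after their values were seen. Levels per mouse on the log2 scale used a pseudocount of 0.1 CPM. RefSeq promoters (GRCm38.p6) matched 10266 tested genes by symbol. Alternatives were DESeq2 1.42.0, 5 other scalings, limma-voom (limma 3.58.1), 2 other filters, a fit without the 14-day mice, a 2-fold threshold and the removal of single mice.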

Additional observations from a re-analysis of the deposited data

How the results depend on the processing

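No paired analysis was possible because the mouse numbers of the groups all differ. Of all genes, 4148 rose and 3496 fell with TMM. With total count only, 6859 rose and 1058 fell, since that setting moves the median of all genes by 0.48. Against a 2-fold change, 609 rose and 201 fell. Under the other alternatives with all libraries, 3656 to 5048 rose and 2690 to 3759 fell. With 1 mouse left out, 3166 to 4639 rose and 2869 to 3873 fell. Of the 117 gene lists with at least 5 tested members, 68 had a median above that of all genes, 67 to 72 with 1 mouse left out. Of 219 named genes, 197 were called in the same direction with total count only, and all 219 with each mouse left out in turn. The other 22, all falls, are marked in the text. Without the 14-day mice, 218 were called again, Asb15 being the exception. None of the named genes changed direction under any alternative run. They were chosen from genes called without overlap between groups in the main fit, so these repeat calls were largely set by that choice. Of all 7644 calls, 7445 were made again in the same direction without mouse 6. The share of mitochondrially encoded counts differed by -10.68 to -5.02 percentage points with 1 mouse left out. Low depth outside mitochondrial and ribosomal RNA limits genes of a few CPM.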

Other observations

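Further groups that bear on cell death, clearance and ion transport were described in the same fit. Of gasdermin, RIP kinase and ferroptosis genes, 11 of 20 tested rose and 7 fell (median log2 fold 0.47; 3, 4, 3, 3 and 4 fell without mice 1, 2, 3, 4 and 5 in turn), against 12 rises and 0 falls with total count only. Gsdmd (0.58, SE 0.16), the pore of pyroptosis, Ripk1 (0.73, SE 0.17), a kinase of necroptosis, and Casp8 (0.88, SE 0.16), which restrains that kinase, were higher, and Gpx4 (-0.59, SE 0.14, lost with total count), which protects lipids from peroxidation, was lower. Of core autophagy genes, 7 of 44 tested rose and 15 fell (median log2 fold -0.09; 4 rose without mouse 4), against 19 rises and 4 falls with total count only. The initiating kinase Ulk1 (-0.92, SE 0.14) and the receptor Optn (-1.22, SE 0.18) were lower, and Vmp1 (1.21, SE 0.14), a membrane protein of early autophagosomes, was higher. Of cathepsins and cystatins, 4 of 14 tested rose and 5 fell (median log2 fold -0.09; 3 fell without mouse 5), against 6 rises and 1 fall with total count only. As shares with TMM, 28.6% rose and 35.7% fell, against 29.4% and 24.8% of all genes. Ctss (1.54, SE 0.26), a protease of antigen-presenting cells, and Ctsz (1.44, SE 0.18) were higher and Ctsf was lower (-1.48, SE 0.21).

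Of ion-coupled exchangers and cotransporters, 17 of 43 tested rose and 10 fell (median log2 fold 0.15; 24 rises and 2 falls with total count). Subunits of the sodium pump differed: Fxyd5 had 4.35, 3.91 and 5.04 CPM in sham mice 1, 2 and 3 and 21.2, 23.1 and 15.05 CPM in mice 4, 5 and 6 (log2 fold 2.18, SE 0.22, edgeR adjusted p = 5.29e-05), while Atp1b2 (-1.11, SE 0.20) was lower. The potassium-chloride cotransporter Slc12a4 was higher (1.24, SE 0.14). Among channels, Clic1 (1.88, SE 0.19), Clic5 (1.26, SE 0.13) and the stretch-gated Piezo1 (1.26, SE 0.15) were higher, and the glycerol channel Aqp7 (-1.11, SE 0.19) was lower. The channel lists, outside the 56 described, held rises and falls. Of chloride channels and anoctamins, 8 of 24 tested rose and 8 fell (14 and 3 with total count). Of TRP, Piezo, P2X and acid-sensing channels, 7 of 25 tested rose and 5 fell (12 and 3 with total count). Of 5 aquaporins tested, 3 fell (2 with total count).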
